A study of Mus musculus with 6 samples.

Results

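The MYC, MAX and MXD network is a set of basic helix-loop-helix leucine zipper transcription factors that share the partner MAX. The 10 genes described here, *Myc*, *Mycn*, *Mycl*, *Max*, *Mxd1*, *Mxd3*, *Mxd4*, *Mxi1*, *Mga* and *Mnt*, were chosen by name among the 22380 gene identifiers of the count tables, and all 10 were found. Their RNA was compared in mouse embryonic stem cells (mESC) with and without acute deletion of the 3 *Tet* genes, which encode the dioxygenases that oxidize 5-methylcytosine in DNA. The *Ctrl* cells carried CreERT2 wt/ki and the reporter allele Gt(ROSA)26Sor<tm1Ytchn>/Jwt/ki. The reporter yields an H2B-EGFP protein once Cre has removed a stop cassette. The *Tet iTKO* (inducible triple knockout) cells carried both of these alleles together with Tet1/2/3fl/fl. Both groups received 1 µM tamoxifen (4-hydroxytamoxifen in the study's methods) for 2.5 days and were grown for 4 further days, so that they were analysed on day 6.5, and the Cre recombinase and the drug were therefore common to both. Cells grew in 2i medium, which holds the GSK3 inhibitor CHIR99021 and the MEK inhibitor PD0325901, on mouse embryonic fibroblast feeders. Live CD326+ GFP+ Thy1.2- cells were sorted, and Smart-Seq2 libraries were made from 3 *Ctrl* and 3 *Tet iTKO* samples. The study's methods describe the mESC populations of each genotype as biological replicates from different embryos. The labels do not say which embryo each library came from, and p-values measure the spread between these samples.

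MYC proteins bind E-box DNA, whose core is CACGTG, as heterodimers with MAX and raise transcription of genes for ribosome production, nucleotide synthesis and cell cycle entry. The MXD proteins, MNT and MGA compete for the same partner: MXD proteins and MNT recruit the SIN3 histone deacetylase corepressor, and MGA joins MAX to a variant Polycomb complex, PRC1.6. In mESC the network is known for self-renewal and growth on the MYC side, and for silencing of germ-cell genes on the MGA and MAX side.

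Values are the authors' normalized counts, that is, read counts divided by a library size factor and rounded. They summed to 4210784 to 4219665 per *Ctrl* library and 3964824 to 3996522 per *Tet iTKO* library, and the read depth behind them is unknown. Identifiers above 0 numbered 13431 to 13539 in *Ctrl* and 14024 to 14363 in *Tet iTKO*. Differences are log2 fold changes (LFC) of *Tet iTKO* over *Ctrl* on the log2(value + 1) scale, which understates changes of low genes. They come from limma fitted to the 10524 genes with a mean of at least 10, and a gene was called at a Benjamini-Hochberg adjusted p under 0.05. *Tet1* stood at 696, 682 and 716 in *Ctrl* and 787, 895 and 753 in *Tet iTKO* (LFC 0.21, adjusted p = 0.0257), and *Tet2* at 249, 170 and 230 against 233, 268 and 211 (LFC 0.15, adjusted p = 0.433). *Tet3* was low, at 28, 13 and 13 against 10, 3 and 3 (LFC -1.67, adjusted p = 0.0353). The counts cover whole genes, including exons outside the floxed part, so they do not check the labels. The *Tet1* LFC was -0.001 after correction for GC content and gene length, its call was lost without *Ctrl* replicate 2 or *Tet iTKO* replicate 2, and that of *Tet3* without *Tet iTKO* replicate 2 or 3.

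No member of the network was called changed in *Tet iTKO* mESC. Of the 10 genes, 8 reached the mean of 10 and were tested, 0 were called higher and 0 lower, whereas 34.8% of all tested genes were called (16.4% higher, 18.4% lower). By unadjusted p under 0.05, 1 of the 8 (*Mxi1*) passed, against 43.6% of all genes. Groups of 3 libraries did not overlap for 2 of the 8, *Mycn* and *Mxi1*, against 44.1% of all genes. The 8 LFCs ran from -0.03 to 0.40 with a median of 0.13 (0.01 over all genes), and their median absolute size was 0.13 (0.29 over all genes). Among the 6113 genes whose means lay in the range of the tested members, 69.3 to 890 normalized counts, 37.9% were called. Standard errors of the members ran from 0.07 to 0.24. In such bulk libraries, fewer cells of a type and less RNA per cell cannot be told apart.

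**Figure D1:**
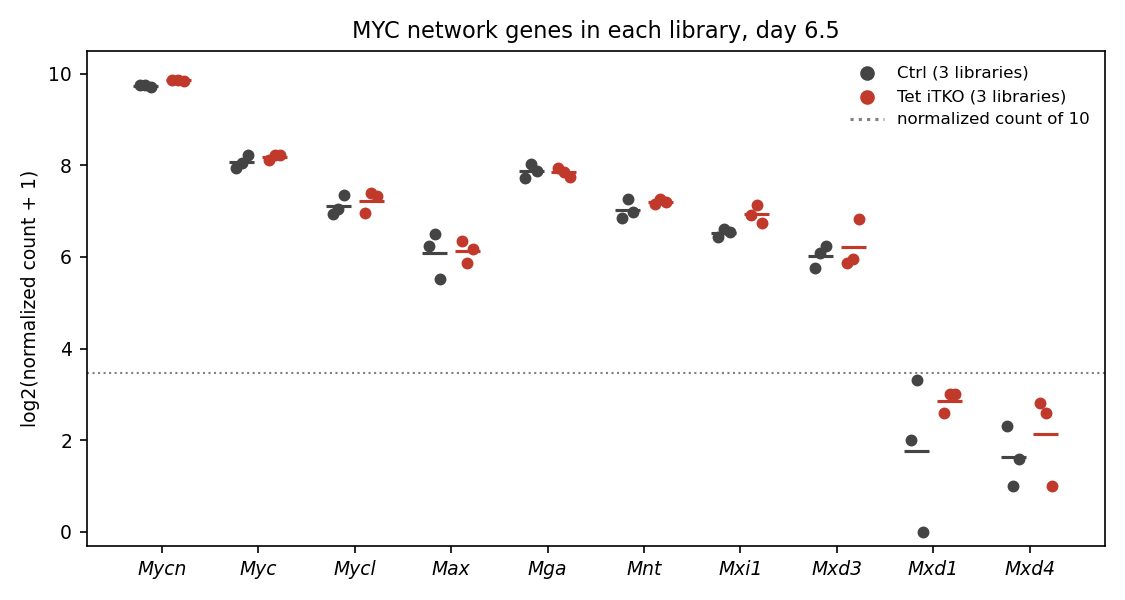
Normalized counts of the 10 network genes on a log2(value + 1) axis, 1 point per library and a bar at the mean of each group. The *Ctrl* and *Tet iTKO* points overlap for every gene except *Mycn* and *Mxi1*, and *Mxd1* and *Mxd4* lie below the dotted line at a normalized count of 10.

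Among the MYC paralogs, *Mycn* (ENSMUSG00000037169.8, chr12:12936093-12941914, minus strand, GRCm38), which encodes N-MYC, was the most abundant. Its promoter is printed because it carried a repeated motif found before none of the other 8 members with a RefSeq window. The 250 bases before its RefSeq start held 2 copies of TTTGGCGC, an E2F-type motif chosen after the sequence was seen, beginning 183 and 168 bases upstream. Of 27025 genes in the promoter table, 131 (0.485%) held this motif on either strand. The capitals mark the motifs in GRCm38.p6 chr12:12941970-12942046, minus strand, 5′ to 3′.
Mycn: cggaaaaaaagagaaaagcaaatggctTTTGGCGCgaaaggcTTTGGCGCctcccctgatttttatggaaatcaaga

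*Mycn* was at 860, 861 and 831 in the *Ctrl* libraries and at 933, 934 and 921 in the *Tet iTKO* libraries, a mean of 851 ± 17.04 (SD, n = 3) against 929 ± 7.23. All *Tet iTKO* libraries lay above all *Ctrl* libraries. The LFC was 0.13 (SE 0.07, 95% interval -0.01 to 0.26), with a limma adjusted p = 0.143. The two-sided exact permutation test over the 6 libraries gave p = 0.1, the smallest that 3 against 3 allows. The call depended on the scaling: with quantile normalization the LFC was 0.22 and *Mycn* was called (adjusted p = 0.00867), and after GC and length correction the LFC was 0.03 (adjusted p = 0.784).

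*Myc* (ENSMUSG00000022346.8, chr15:61985391-61990374, plus strand), encoding c-MYC, an immediate target of many growth signals, was at 243, 263 and 296 in *Ctrl* and at 277, 297 and 298 in *Tet iTKO*. The highest *Ctrl* library lay within the *Tet iTKO* range. The means were 267 ± 26.8 and 291 ± 11.8 (SD, n = 3), and the LFC was 0.12 (SE 0.11, 95% interval -0.10 to 0.35, adjusted p = 0.414).

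*Mycl* (ENSMUSG00000028654.7, chr4:122995652-123002485, plus strand) encodes L-MYC, the paralog with the weakest transforming activity. It was at 122, 132 and 162 in *Ctrl* and at 123, 167 and 160 in *Tet iTKO*, and the groups overlapped over most of their range. The LFC was 0.11 (SE 0.16, adjusted p = 0.631), and it was -0.12 after GC and length correction (adjusted p = 0.609).

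Levels of different genes were compared per kb of the union of annotated exons. This length exceeds that of the longest transcript by unlike amounts (3598 against 1942 bp for *Max*, 3295 against 2674 bp for *Mycn*). Levels compared between genes therefore depend on the length used. In *Ctrl*, *Mycn* stood at 258 ± 5.17 normalized counts per kb (SD, n = 3), *Myc* at 98.4 ± 9.85 and *Mycl* at 34.3 ± 5.16, and the ranges of the 3 paralogs did not overlap. In *Tet iTKO* the per-kb levels were 282 ± 2.2, 107 ± 4.36 and 37.1 ± 5.86, in the same order. *Mycn* made up 68.57, 66.87 and 62.85% of the summed paralog level per kb in the *Ctrl* libraries and 68.14, 65.29 and 65.18% in the *Tet iTKO* libraries, which overlapped. The summed level itself was 380.6, 390.8 and 401.3 per kb in *Ctrl* and 415.6, 434.1 and 428.8 per kb in *Tet iTKO*, with no overlap between groups, and *Mycn* supplied most of it. The sum thus largely repeats the *Mycn* counts, whose LFC was 0.03 after GC and length correction. Groups did not overlap for 44.1% of all genes. The log2 ratio of *Mycn* to *Myc*, which does not depend on the size factor of a library, was 1.67 ± 0.17 in *Ctrl* and 1.67 ± 0.07 in *Tet iTKO* (SD, n = 3), a difference of 0.00 (two-sided exact permutation p = 1.0, adjusted over 4 ratios 1.0).

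**Figure D2:**
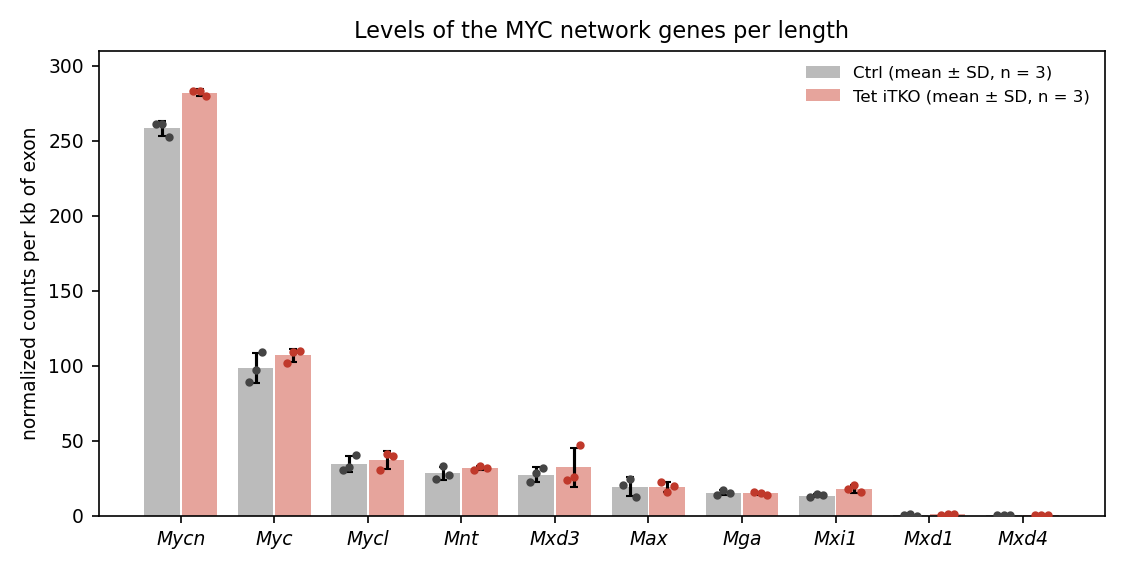
Normalized counts per kb of exon for the 10 network genes, bars starting at 0 with the mean and SD of 3 libraries per group and 1 point per library. *Mycn* (258 in *Ctrl*, 282 in *Tet iTKO*) and *Myc* (98.4 and 107) stand above the other 8 genes in both groups.

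*Max* (ENSMUSG00000059436.5, chr12:76937269-76962201, minus strand), the shared partner with which MYC, MXD, MNT and MGA proteins bind E-boxes, was at 74, 89 and 45 in *Ctrl* and at 80, 57 and 71 in *Tet iTKO*. All *Tet iTKO* libraries fell inside the *Ctrl* range, and both means were 69.3 (SD 22.4 and 11.6, n = 3). The LFC was 0.04 (SE 0.24, 95% interval -0.45 to 0.53, adjusted p = 0.918), so a change smaller than that interval was not detectable in these libraries. Leaving out single libraries moved the *Max* LFC between -0.24 and 0.25, with *Ctrl* replicate 3 the lowest library. Per kb of exon, *Max* stood at 19.3 in both groups, and the summed MYC paralogs exceeded it 18.51, 15.8 and 32.08 times in *Ctrl* and 18.69, 27.41 and 21.73 times in *Tet iTKO*. The size of these ratios depends on the length used, because the exon union of *Max* is 3598 bp and its longest transcript 1942 bp.

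The MXD genes encode the antagonists that pair with MAX and recruit SIN3. *Mxi1* (ENSMUSG00000025025.7, chr19:53310518-53375810, plus strand), also called MXD2, showed the largest LFC among the tested members. It was at 86, 97 and 92 in *Ctrl* and at 120, 140 and 106 in *Tet iTKO*, or 91.7 ± 5.51 against 122 ± 17.1 (SD, n = 3). Every *Tet iTKO* library exceeded every *Ctrl* library. The LFC was 0.40 (SE 0.18, 95% interval 0.04 to 0.76), with an unadjusted limma p = 0.0304 and an adjusted p = 0.0781, and the two-sided exact permutation p was 0.1, the smallest possible. *Mxi1* stayed above 0.05 in adjusted p under every alternative (0.0594 to 0.311), with an LFC from 0.30 to 0.50. After GC and length correction the LFC was 0.39 (adjusted p = 0.0976). Its exons overlap 194 bp of *Gm10197* on the opposite strand, which was at 0 in all 6 libraries.

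*Mxd3* (ENSMUSG00000021485.7, chr13:55325168-55329823, minus strand), the MXD gene known for expression in dividing cells, was at 53, 67 and 75 in *Ctrl* and at 57, 61 and 112 in *Tet iTKO*. *Tet iTKO* replicate 3 alone lay above the *Ctrl* range. The LFC was 0.18 (SE 0.24, adjusted p = 0.606) and -0.12 without that library. *Mxd3* exons overlap 105 bp of *Prelid1* on the opposite strand. Smart-Seq2 does not keep strand, so reads from the shared stretch cannot be told apart, and *Prelid1* was far more abundant (1078, 1246 and 1243 in *Ctrl*, 1107, 1218 and 1150 in *Tet iTKO*).

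*Mxd1* (ENSMUSG00000001156.7, chr6:86647042-86669161, minus strand) and *Mxd4* (ENSMUSG00000037235.7, chr5:34173883-34187720, minus strand), antagonists best known from differentiating cells, were near the bottom of the tables and were not tested. *Mxd1* was at 3, 9 and 0 in *Ctrl* and at 5, 7 and 7 in *Tet iTKO*. *Mxd4* was at 4, 1 and 2 in *Ctrl* and at 6, 5 and 1 in *Tet iTKO*. Both pairs of ranges overlapped, and no difference was detectable at these levels. The RefSeq window of *Mxd4* held an E-box beginning 219 bases before its start (GRCm38.p6 chr5:34187897-34187956, minus strand), shown because *Mxd4* and *Mnt* were the only members with this motif.
Mxd4: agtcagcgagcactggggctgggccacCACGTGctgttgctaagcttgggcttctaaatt

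The log2 ratio of *Mxd3* to *Mxd4*, which rests on the few *Mxd4* counts, was 4.39 ± 0.86 in *Ctrl* and 4.08 ± 1.51 in *Tet iTKO* (two-sided exact permutation p = 0.8, adjusted 1.0). The summed MXD level per kb (*Mxd1*, *Mxd3*, *Mxd4* and *Mxi1*) was 35.86, 43.89 and 45.38 in *Ctrl* and 43.07, 47.85 and 63.93 in *Tet iTKO*. The MYC paralog sum exceeded it 10.61, 8.9 and 8.84 times in *Ctrl* and 9.65, 9.07 and 6.71 times in *Tet iTKO*, and these ranges overlapped.

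*Mnt* (ENSMUSG00000000282.6, chr11:74830920-74845725, plus strand) encodes the MAX partner that opposes MYC in most tissues. Its RefSeq window carried an E-box beginning 123 bases before the start (GRCm38.p6 chr11:74830774-74830833, plus strand).
Mnt: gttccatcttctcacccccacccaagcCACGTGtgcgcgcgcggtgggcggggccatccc

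*Mnt* was at 114, 152 and 125 in *Ctrl* and at 141, 153 and 147 in *Tet iTKO*, and the highest *Ctrl* library lay within the *Tet iTKO* range. The LFC was 0.18 (SE 0.16, adjusted p = 0.394) as deposited and -0.32 after GC and length correction (95% interval -0.64 to -0.01, adjusted p = 0.124), so its direction turned with the correction. The log2 ratio of *Mnt* to *Max* was 0.95 ± 0.45 in *Ctrl* and 1.09 ± 0.30 in *Tet iTKO* (two-sided exact permutation p = 0.7, adjusted 1.0).

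*Mga* (ENSMUSG00000033943.9, chr2:119897228-119969581, plus strand) encodes the large T-box and helix-loop-helix protein that tethers PRC1.6 to DNA. It was at 211, 262 and 233 in *Ctrl* and at 245, 231 and 215 in *Tet iTKO*, all *Tet iTKO* libraries inside the *Ctrl* range. The LFC was -0.03 (SE 0.12, 95% interval -0.27 to 0.22, adjusted p = 0.889). The log2 ratio of *Mga* to *Max* was 1.80 ± 0.48 in *Ctrl* and 1.73 ± 0.24 in *Tet iTKO* (two-sided exact permutation p = 1.0, adjusted 1.0).

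Below *Mycn* and *Myc*, the per-kb levels in *Ctrl* ran from *Mycl* (34.3) through *Mnt* (28.2 ± 4.23), *Mxd3* (27.4 ± 4.7), *Max* (19.3 ± 6.22) and *Mga* (15.3 ± 1.67) to *Mxi1* (13.4 ± 0.81), and each neighbour in that order overlapped the next. *Mxd1* (0.57 ± 0.65) and *Mxd4* (0.28 ± 0.18) lay below all of these and overlapped each other. In *Tet iTKO*, *Mycl*, *Mxd3* and *Mnt* formed one overlapping stretch and *Max*, *Mxi1* and *Mga* a lower one, with *Mxi1* at 17.9 ± 2.5 per kb. Both orders rest on the exon union as length, and the place of *Max* in particular depends on that choice.

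**Figure D3:**
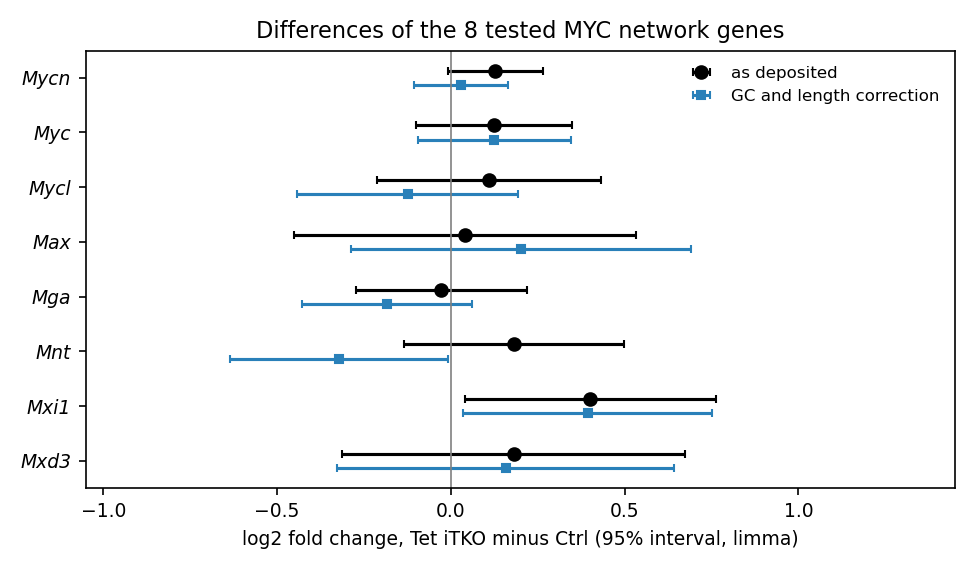
LFC with its 95% limma interval for the 8 tested network genes, as deposited (black) and after GC and length correction (blue). As deposited, *Mxi1* alone has an interval above 0 (0.04 to 0.76), and *Mnt* moves from 0.18 to -0.32 with the correction.

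In the 250 bases before the RefSeq start, CACGTG occurred in 2 of the 9 members with a window (22.2%) and in 1854 of 27025 genes (6.86%). The related CACGCG was searched on both strands as well and was held by 2 members (*Mycl*, 20 bases, and *Mga*, 21 bases before the start), against 8.65% of all genes. These matches describe letters in a fixed window and not bound sites.

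The genes around the network were grouped into 8 lists, of which 133 distinct genes were tested, with 24 called higher and 42 lower (49.6% called, against 34.8% of all genes). The lists were not tested as sets. The counts of called genes depended on the variance setting. With eBayes without trend, 1075 of the 10524 genes were called higher and 1217 lower. The SIN3 corepressor list then had 1 higher and 4 lower, and the MYC coactivators and partners 2 and 2. The MGA complex kept 0 higher and 1 lower, and the germ-cell list had 0 higher and 5 lower. *Hdac1*, *Hdac2* and *Wdr5* each stand in 2 lists.

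The MLX arm is the parallel branch in which MLX replaces MAX and the glucose-responsive MLXIP (MondoA) and MLXIPL (ChREBP) bind carbohydrate-response E-boxes. Of its 3 genes 2 rose and 0 fell (66.7% called, against 34.8% of all genes). *Mlxip* was at 94, 91 and 51 in *Ctrl* and at 167, 180 and 107 in *Tet iTKO* (LFC 0.95, adjusted p = 0.000472), with no overlap between groups, and the call held in all 6 fits that left out 1 library and after GC and length correction (LFC 0.59, adjusted p = 0.0333), but not with eBayes without trend. *Mlxipl* was at 8, 2 and 11 in *Ctrl* and at 31, 21 and 18 in *Tet iTKO* (LFC 1.79, adjusted p = 0.0125), also without overlap, but these counts are low and the call was lost without *Ctrl* replicate 2 and without *Tet iTKO* replicate 1 (adjusted p up to 0.0931), and likewise without the filter on low values (0.0571), with quantile normalization (0.067) and with eBayes without trend (0.0648). Genes of the arm called higher numbered 1 in each of these settings, except 0 with eBayes without trend. *Mlx* itself was at 325, 313 and 371 against 288, 315 and 316 (LFC -0.13, adjusted p = 0.349). CACGTG, held by 6.86% of all genes, was absent from the RefSeq window of *Mlxip*. *Mlx* and *Mlxipl* each held CACGTG before their RefSeq start, 40 and 98 bases upstream (GRCm38.p6 chr11:101087223-101087282 and chr5:135089765-135089824, both plus strand), shown here because MLX heterodimers recognise E-boxes of this type.
Mlx: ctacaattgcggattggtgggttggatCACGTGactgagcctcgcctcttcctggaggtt
Mlxipl: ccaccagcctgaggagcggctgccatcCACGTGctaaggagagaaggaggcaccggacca

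Of 14 tested genes of the MGA complex (PRC1.6), 0 were called higher and 1 lower (7.14% called, against 34.8% of all genes, median LFC -0.08). The count lower was 0 with quantile normalization, 2 with a mean of at least 50 or without *Ctrl* replicate 1, and 3 with TMM rescaling. The one that fell was *Hdac1*, a histone deacetylase shared with SIN3 (2141, 1920 and 2105 in *Ctrl*, 1736, 1765 and 1770 in *Tet iTKO*, LFC -0.22, adjusted p = 0.00159), and its call was lost after GC and length correction (LFC -0.09, adjusted p = 0.245). With that correction the list's counts became 2 higher and 3 lower, against 1367 higher and 1480 lower of all 10524 genes.

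Of 15 SIN3 corepressor genes 2 rose and 7 fell (60.0% called, against 34.8% of all genes), with a median LFC of -0.22. Those with the largest falls were *Ing1*, a reader of methylated histone H3 (LFC -0.59, adjusted p = 0.00049), *Sap30*, a scaffold subunit (LFC -0.47, adjusted p = 6.72e-05), *Sap18* (LFC -0.42, adjusted p = 0.0012) and the histone chaperone *Rbbp4* (LFC -0.40, adjusted p = 1.03e-07). *Sap130* (LFC 0.56, adjusted p = 0.0112) and *Arid4a* (LFC 0.52, adjusted p = 0.0286) rose, but *Sap130* no longer passed without *Ctrl* replicate 2 or *Tet iTKO* replicate 1, nor *Arid4a* without *Ctrl* replicate 1 or *Tet iTKO* replicate 2 or 3. GC and length correction gave 4 higher and 5 lower, and *Sap30* lost its call.

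Of 15 MYC coactivators and partners 4 rose and 5 fell (60.0% called, against 34.8% of all genes, median LFC 0.01). *Actl6a*, the actin-related BAF53A subunit shared by TIP60 and BAF complexes, fell from 1869, 1817 and 1801 to 1274, 1137 and 1167 (LFC -0.62, adjusted p = 2.05e-10), and *Ruvbl2*, a helicase of the same TIP60 complex, fell by 0.33 (adjusted p = 2.39e-06). *Paf1* (LFC -0.35, adjusted p = 0.00446) and *Zbtb17*, which encodes the MYC partner MIZ1 (LFC -0.40, adjusted p = 0.0273), also fell, and their calls were lost without *Tet iTKO* replicate 3 for *Paf1* and without *Ctrl* replicate 1, *Ctrl* replicate 3 or *Tet iTKO* replicate 2 for *Zbtb17*. Among those that rose, *Trrap* (LFC 0.49, adjusted p = 0.0233), *Hcfc1* (LFC 0.26, adjusted p = 0.018) and *Kat2a* (LFC 0.25, adjusted p = 0.0105), turned below 0 after GC and length correction, which left 0 of the list higher and 6 lower. Without 1 library, the call of *Trrap* was lost in 4 of 6 fits (without *Ctrl* replicate 1 or any *Tet iTKO* replicate), that of *Hcfc1* in 3 (*Ctrl* replicate 2, *Tet iTKO* replicates 1 and 2) and that of *Kat2a* in 1 (*Ctrl* replicate 1). Long or GC-rich genes tended to have higher LFCs across the table (Spearman 0.258 with GC content and 0.293 with length across 10457 genes, which are not independent replicates).

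Of 15 genes for MYC protein turnover 3 rose and 2 fell (33.3% called, close to the 34.8% of all genes). *Huwe1*, a ubiquitin ligase for MYC proteins, rose from 341, 338 and 306 to 475, 498 and 488 (LFC 0.57, adjusted p = 7.1e-06), and *Usp22* (LFC 0.30, adjusted p = 0.00427) and *Plk1* (LFC 0.21, adjusted p = 0.00731) rose by less. The calls of all 3 were lost after GC and length correction, that of *Usp22* also without *Tet iTKO* replicate 1 and that of *Plk1* without *Ctrl* replicate 1 or *Tet iTKO* replicate 3. *Stub1*, another ubiquitin ligase, fell by 0.30 (adjusted p = 0.0228), a call lost without *Ctrl* replicate 2 or 3 or *Tet iTKO* replicate 1 or 3.

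Of 53 genes that MYC is known to activate for growth, 10 rose and 23 fell (62.3% called, against 34.8% of all genes), with a median LFC of -0.07. The split turned with quantile normalization, which gave 18 higher and 11 lower, and GC and length correction gave 9 higher and 16 lower. The share called also depended on the setting. With eBayes without trend the list had 3 higher and 8 lower, against 1075 higher and 1217 lower of all 10524 genes. The largest falls were in *Nip7*, a ribosome biogenesis factor (1591, 1506 and 1537 in *Ctrl*, 864, 900 and 968 in *Tet iTKO*, LFC -0.76, adjusted p = 6.67e-12), *Hspe1*, a mitochondrial chaperonin (LFC -0.60, adjusted p = 4.86e-11, but -0.06 after GC and length correction), *Nme1*, a nucleoside diphosphate kinase (LFC -0.57, adjusted p = 6.73e-06), and *Odc1*, the first enzyme of polyamine synthesis (LFC -0.46, adjusted p = 2.1e-09). *Ccnd2*, which encodes cyclin D2, rose from 17, 15 and 19 to 42, 48 and 46 (LFC 1.37, adjusted p = 0.00204), and *Shmt2*, a mitochondrial enzyme of one-carbon metabolism, rose by 0.44 (adjusted p = 1.17e-08). *Cad*, the enzyme that opens pyrimidine synthesis, rose from 971, 943 and 1001 to 1667, 1546 and 1493 (LFC 0.69, adjusted p = 5.42e-11), although its LFC was 0.14 after correction (adjusted p = 0.103), and *Eif4g1* rose by 0.30 (adjusted p = 2.84e-05) but stood at -0.004 after correction.

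Of 6 genes listed as repressed by MYC, 5 were tested, 2 rose and 0 fell (40.0% called, near the 34.8% of all genes, median LFC 0.26). *Ndrg2* rose from 53, 35 and 58 to 91, 110 and 136 (LFC 1.20, adjusted p = 7.36e-05). *Cdkn1a*, which encodes the cell cycle inhibitor p21, rose from 375, 432 and 378 to 493, 484 and 474 (LFC 0.29, adjusted p = 0.0101). Neither gene overlapped between groups, and both calls held in all 6 fits that left out 1 library, but that of *Cdkn1a* was lost with eBayes without trend (adjusted p = 0.0671).

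The last list holds germ-cell genes that MAX and MGA are known to silence in mESC. Of 23 listed genes 22 were in the tables and 16 were tested, of which 1 rose and 5 fell (37.5%, close to the 34.8% of all genes). *Dazl*, a germ-cell RNA-binding protein, was at 191, 264 and 240 in *Ctrl* and at 113, 52 and 82 in *Tet iTKO* (LFC -1.54, adjusted p = 4.26e-08). *Rpl10l* (LFC -1.16, adjusted p = 1.47e-08), *Stag3*, a meiotic cohesin subunit (121, 101 and 113 against 47, 74 and 67, LFC -0.84, adjusted p = 0.00153), and *Hormad1*, a meiotic chromosome axis protein (251, 197 and 183 against 128, 126 and 105, LFC -0.80, adjusted p = 6.15e-05), also fell. *Rpl10l* is a retrocopy of *Rpl10*, so its count is uncertain, and the *Hormad1* LFC was -0.27 after GC and length correction (adjusted p = 0.185). *Mov10l1*, a piRNA pathway helicase, rose (24, 9 and 9 against 43, 70 and 14, LFC 1.41, adjusted p = 0.0188), but its ranges overlap, and it no longer passed without *Ctrl* replicate 2 or 3 or *Tet iTKO* replicate 1 or 2. With the correction, 3 of the list were higher and 4 lower.

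CACGTG was frequent before the starts of this last list, in 11 of 20 genes with a window (55.0%, against 6.86% of all genes), and in 9 of 44 growth genes (20.5%). By call, it was held by 2 of the 5 germ-cell genes that fell (*Hormad1* and *Stag3*, not *Dazl* or *Rpl10l*), the 1 that rose (*Mov10l1*), 7 of 9 not called and 1 of 5 not tested. One window of each kind of call is printed with the motif in capitals, for *Hormad1* (lower, GRCm38.p6 chr3:95559593-95559652, plus strand), *Mov10l1* (higher, chr15:88982744-88982780, plus strand) and *Sycp1* (not called, chr3:102936162-102936221, minus strand, a synaptonemal complex gene chosen after its values were seen).
Hormad1: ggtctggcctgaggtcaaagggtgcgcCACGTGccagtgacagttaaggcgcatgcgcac
Mov10l1: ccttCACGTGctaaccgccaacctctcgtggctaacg
Sycp1: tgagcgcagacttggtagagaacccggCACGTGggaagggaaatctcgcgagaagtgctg

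**Figure D4:**
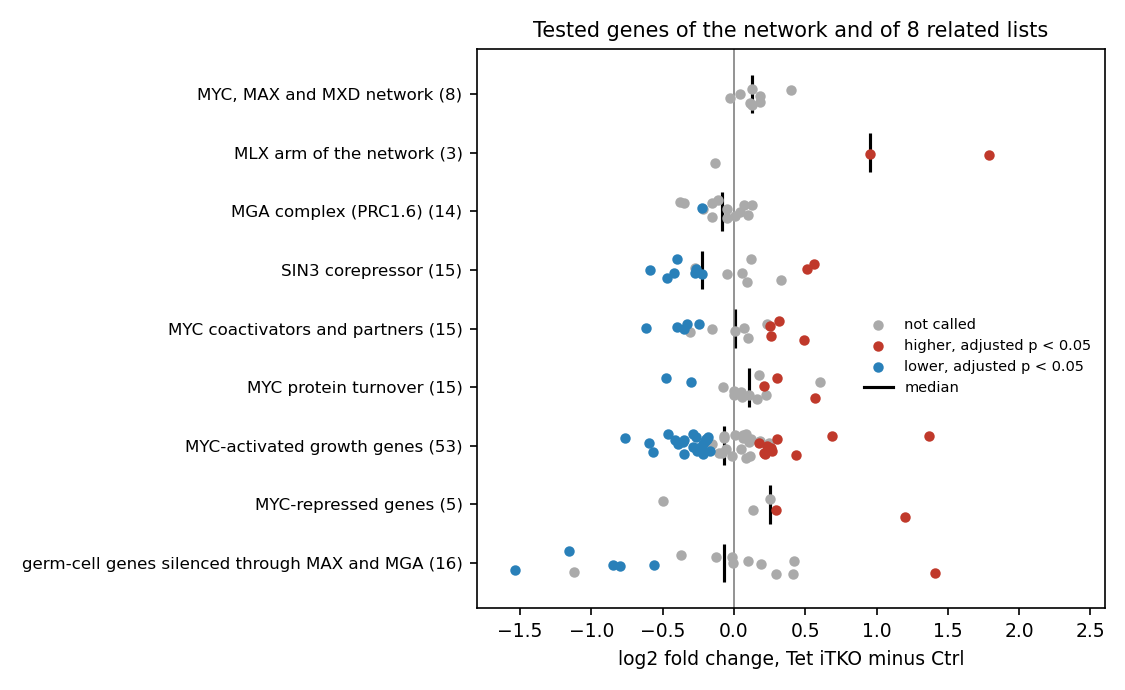
LFC of each tested gene of the network and of the 8 related lists, with the number tested in parentheses, a black bar at the median, and color for genes called higher (red), lower (blue) or not called (grey). All 8 network points are grey and lie between -0.03 and 0.40, while every related list holds at least 1 called gene.

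Naive pluripotency markers were abundant in all 6 libraries. Summed naive, feeder fibroblast, 2-cell-like and primed epiblast markers did not overlap between the groups. Summed trophoblast and primitive endoderm markers did overlap. The summed naive pluripotency markers were 18447 to 18797 in *Ctrl* and 16955 to 17460 in *Tet iTKO* (3 of 10 tested called higher, 4 lower). After GC and length correction 2 were higher and 3 lower. Over all tested genes 34.8% were called in the main fit, the share to set beside each count of called markers here. Feeder fibroblast markers summed to 342 to 367 in *Ctrl* and 553 to 639 in *Tet iTKO*, with *Col1a1*, *Col1a2* and *Col3a1* called higher of 6 tested, while *Postn* and *S100a4* were at 0 to 4 and *Thy1*, a marker the sort excludes, was not called. With the correction these collagen calls held, and the median LFC of the 6 went from 0.74 to 0.19. Among the fibroblast markers too low to test, *Fbn1* was at 2, 1 and 2 in *Ctrl* and at 15, 10 and 6 in *Tet iTKO*. The others too low to test overlapped between groups. Markers of the 2-cell-like state summed to 9 to 23 in *Ctrl* and 144 to 172 in *Tet iTKO* (4 of 4 higher), and primed epiblast markers to 2166 to 2197 and 2524 to 2658 (2 of 3 higher, *Otx2* and *Dnmt3b*). The *Dnmt3b* call was lost with the correction (LFC 0.068, adjusted p = 0.338). Trophoblast markers summed to 727 to 797 and 796 to 819 (*Krt8* and *Krt18* higher, *Tfap2c* lower, of 4, with *Eomes* at an LFC of 0.84 and an adjusted p = 0.0909), while *Cdx2* was at 0 in all *Ctrl* libraries and at 1, 5 and 2 in *Tet iTKO*, *Hand1* at 0 in all *Ctrl* libraries and at 6, 5 and 6, and *Elf5* at 0 in 5 libraries and 1 in the other. Primitive endoderm markers summed to 24 to 33 and 28 to 47. Of the 2 tested, both at low counts, *Gata4* was called higher (LFC 1.64, adjusted p = 0.0302), a call lost after GC and length correction (adjusted p = 0.0902). The other, *Sox7*, went the opposite way and was not called (LFC -1.195, adjusted p = 0.149). The part of all these markers in the values of the network and its lists was not tested.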

How the data were processed

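The 6 libraries (3 *Ctrl*, 3 *Tet iTKO*) were grouped from their labels. Per the labels and the study's methods, reads were aligned with STAR, unique alignments were counted with HTSeq 0.7.1 using its strand setting, and counts were divided by DESeq2 1.26.0 size factors in R 3.5.2. The submitters' notes name mm9. The authors deposited the quotients as whole numbers, treated here as a score and not as raw counts, so a count model was not used. Identifiers (22380) were matched without version to GENCODE M21 on GRCm38, and 20775 had a symbol. Locations and exon lengths come from that annotation and promoters from RefSeq (GRCm38.p6), where *Myc* has no window.

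Main differences came from limma 3.58.1 (R 4.3.3, lmFit and eBayes with trend, no block) on log2(value + 1), keeping genes whose mean over the 6 libraries reached 10. Of 10524 genes tested, p-values were Benjamini-Hochberg adjusted over all. Ratios used two-sided exact permutation over libraries (SciPy 1.17.1). GC and length correction subtracted a loess fit (span 0.3). The fitting steps were tested on simulated data. Alternatives covered the pseudocount, filter, scaling, trend, replicate block, GC and length, and each library left out. The same alternatives for the 8 lists and their genes were added after seeing the data.

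All 10 members, the *Tet* genes and up to 4 called genes per list and direction, by largest LFC, were named, except some that are not reported here. The members and lists were chosen with earlier results of these data known, and the TTTGGCGC motif after the sequences were seen. Same-numbered libraries did not deviate together and no pairing was used, although the labels do not say whether they share an experiment. Mean squared differences within groups were 2.6 to 3.49 times what counting noise would give if the normalized counts were read counts. The read depth is unknown, so the true multiple is unknown too. *Meiosin*, *Pou3f1*, *Tcstv1* and *Tcstv3* were not analysed here.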

Additional observations from a re-analysis of the deposited data

How the results depend on the processing

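Of 128 member values under alternatives, 116 kept their direction and their side of the threshold, 11 changed direction and 1 passed the threshold. With quantile normalization 1 member was called higher instead of 0 (*Mycn*, LFC 0.22), and no alternative called a member lower. Turned LFCs were -0.12 for *Mycl* and -0.32 for *Mnt* after GC and length correction (the same with the replicate block added), and -0.066 for *Max* and 0.001 for *Mga* with quantile normalization. Leaving out single libraries gave -0.24 to 0.25 for *Max*, -0.12 to 0.36 for *Mxd3* and -0.10 to 0.053 for *Mga*. For the differences in log2 ratio, GC and length correction gave -0.095 for *Mycn* to *Myc* and -0.52 for *Mnt* to *Max*, with no corrected value for *Mxd3* to *Mxd4* because *Mxd4* fell under the filter. Leaving out single libraries gave -0.089 to 0.078 for *Mycn* to *Myc*, -1.19 to 0.20 for *Mxd3* to *Mxd4*, -0.22 to 0.21 for *Mga* to *Max* and -0.024 to 0.40 for *Mnt* to *Max*. The causes were not tested. Ratios of 3 against 3 libraries cannot pass 0.05 by permutation.

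Among the genes named from other lists, GC and length correction, with or without the replicate block, gave -0.12 for *Trrap*, -0.22 for *Hcfc1*, -0.034 for *Kat2a*, -0.004 for *Eif4g1*, -0.001 for *Tet1* and -0.058 for *Tet2*, and *Tet2* was at -0.019 without *Ctrl* replicate 2. *Hcfc1* was then called lower (adjusted p = 0.0488). Of the 35 named genes called in the lists, 14 lost the call with eBayes without trend, 11 after GC and length correction, 6 without the filter on low values, 4 with quantile normalization and 3 to 7 with 1 library left out, while pseudocounts of 0.5 and 4, TMM rescaling and the replicate block cost 0. The correction called 1367 genes higher and 1480 lower over the whole table, against 1731 and 1934, and eBayes without trend 1075 and 1217. Of called genes 47.2% were higher, against 41.5% with a mean of at least 50 and 50.5% with quantile normalization. With the replicate number as a block, 0 members were called, and 1762 genes were higher and 1980 lower. Same-number correlations of deviations were 0.001, -0.005 and -0.003. The study describes its RNA data as coming from 3 independent experiments. Whether same-numbered libraries share an experiment is not given by the labels, and these correlations cannot settle it.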
